A study of Mus musculus with 9 samples.

Results

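Integrins are the receptors by which cells hold on to the matrix around them, and 10 of their subunits were followed here in MLO-Y4 osteocyte-like cells. The 10 genes were chosen by name and are not all the subunits of their ligand classes. Of their alpha chains, Itga1, Itga2 and Itga11 bind collagen, Itga3 and Itga6 laminin, and Itga5 and Itgav fibronectin or vitronectin. The beta chains among the 10 are Itgb1, Itgb3 and Itgb5. All 10 were among the 56748 genes of the count table, and 9 of them were among the 13812 genes with enough reads to be tested. Itga11 was not, with at most 9 reads in any library.

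An integrin is a pair of 1 alpha and 1 beta chain, and the pair, more than either chain alone, decides which ligand is bound. The beta1 chain joins alpha1, alpha2 and alpha11 as collagen receptors, alpha3 and alpha6 as laminin receptors, and alpha5 as the classical fibronectin receptor, while alphav joins beta3 and beta5 in receptors for vitronectin and other proteins that carry an RGD (arginine-glycine-aspartate) sequence. In bone, integrins of osteocytes tether the cell body and its processes to the mineralised matrix and take part in sensing load.

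RNA of MLO-Y4 cells was sequenced after co-culture with primary chondrocytes of C57BL/6J mouse pups, which sat on transwell inserts and shared only the medium. Chondrocytes of the control group were not stimulated, and those of the 24 h and 48 h groups had received 10 ng/mL interleukin-1β for 6 h before the co-culture of that length, with 3 libraries in each group. The labels give no culture time for the control group, so interleukin-1β stimulation and time in culture cannot be told apart in a difference from control. All MLO-Y4 cells grew on plastic coated with collagen type I at 0.15 mg/mL, a ligand of the collagen-binding integrins. MLO-Y4 is an immortalised line from mouse long bone, and the labels spell the cell line of the 48 h samples MLO-Y5, MLO-Y6 and MLO-Y7, while the protocol names MLO-Y4 throughout.

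The libraries held 12250628 to 18515456 counted reads. Of 16 osteocyte and osteoblast markers, Mepe, Fgf23 and Ibsp had no read in any library, Sost had at most 1 read and Dmp1 at most 6, so the mature osteocyte markers were at or near 0. Podoplanin (Pdpn), Phex, connexin-43 (Gja1) and Col1a1 were expressed. The list's summed level was 7208 to 7435 CPM (counts per 1000000 reads, scaled between libraries) in control, 7489 to 7683 at 24 h and 6887 to 6911 at 48 h. Osteopontin (Spp1) was the largest part of this sum, with 3881 CPM in control and 2743 CPM at 48 h. Against control at 48 h, 3 of the 11 tested genes of the list (Gja1, Phex and Pdpn) were higher and 6 were lower (edgeR, adjusted p under 0.05). The shares over all tested genes were 22% and 24.4%. Gja1, Phex and Pdpn had log2 fold changes of 0.69, 0.43 and 0.15. Among the 6 lower genes were Cd44, Spp1 and Alpl, with -0.57, -0.50 and -0.38. Of 16 chondrocyte markers, Acan and 5 others were at 0 in all libraries and Col2a1 had at most 7 reads. The summed level was 1684 to 1717 CPM in control, 1566 to 1650 at 24 h and 2129 to 2218 at 48 h, most of it Prg4. Of the 6 tested genes of this list, 3 were higher and 1 was lower at 48 h against control, and none passed at 24 h. The shares over all tested genes were again 22% and 24.4% at 48 h, and 3.25% and 2.9% at 24 h. Prg4 and Sox9 were among the higher genes, with log2 fold changes of 0.38 and 0.14 (edgeR, adjusted p = 8.64e-08 and 0.0449). Sox9 had 112 CPM in control and 124 CPM at 48 h. Of 11 macrophage and leukocyte markers, Adgre1, Itgam and Tyrobp were at 0 in all libraries and Ptprc had at most 1 read. The summed level was 38.5 to 41.8 CPM in control, 39.4 to 43.3 at 24 h and 42.3 to 45.0 at 48 h, most of it Cd14 and Itgb2. Cd14 had 13.3 CPM in control, 20.5 at 24 h and 16.0 at 48 h. Its log2 fold changes against control were 0.62 at 24 h and 0.27 at 48 h (edgeR, adjusted p = 0.000304 and 0.0285). Of the 4 tested genes of this list, 1 was higher and 1 lower at 24 h. At 48 h, 1 was higher and 0 were lower, beside the same shares over all tested genes. The 6 endothelial markers together reached at most 1.05 CPM.

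Itga1 and Itgb3 had the largest increases and Itga6 and Itga5 the largest decreases at 48 h, and the 250 bases before the start of each canonical transcript are shown for these 4 genes as the sequence next to the measured change. They were read from GRCm39 at GENCODE vM39 starts, 5′ to 3′ on the strand of the gene, and capitals mark the GC box GGGCGG or its reverse complement. In the deposited table the gene bodies span chr13:115089632-115238500 (Itga1), chr11:104498826-104561302 (Itgb3), chr2:71575960-71688760 (Itga6) and chr15:103252713-103275190 (Itga5). The windows lie at chr13:115238678-115238927 on the minus strand for Itga1, chr11:104498576-104498825 on the plus strand for Itgb3, chr2:71616969-71617218 on the plus strand for Itga6 (inside its deposited span, which begins at an upstream start) and chr15:103275191-103275440 on the minus strand for Itga5.
Itga1: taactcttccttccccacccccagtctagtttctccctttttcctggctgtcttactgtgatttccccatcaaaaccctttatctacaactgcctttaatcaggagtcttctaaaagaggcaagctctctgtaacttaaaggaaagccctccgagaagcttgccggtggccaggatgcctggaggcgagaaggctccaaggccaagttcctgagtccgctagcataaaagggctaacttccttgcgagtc
Itgb3: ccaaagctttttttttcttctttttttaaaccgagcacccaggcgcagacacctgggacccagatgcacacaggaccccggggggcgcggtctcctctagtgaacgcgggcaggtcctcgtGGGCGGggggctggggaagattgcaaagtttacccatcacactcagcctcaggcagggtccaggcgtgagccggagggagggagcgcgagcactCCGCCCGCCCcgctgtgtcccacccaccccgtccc
Itga6: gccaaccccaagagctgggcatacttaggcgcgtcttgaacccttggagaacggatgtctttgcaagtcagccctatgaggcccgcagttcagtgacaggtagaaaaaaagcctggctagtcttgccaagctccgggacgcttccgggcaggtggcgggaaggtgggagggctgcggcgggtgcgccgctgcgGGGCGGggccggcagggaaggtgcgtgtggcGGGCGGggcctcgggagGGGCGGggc
Itga5: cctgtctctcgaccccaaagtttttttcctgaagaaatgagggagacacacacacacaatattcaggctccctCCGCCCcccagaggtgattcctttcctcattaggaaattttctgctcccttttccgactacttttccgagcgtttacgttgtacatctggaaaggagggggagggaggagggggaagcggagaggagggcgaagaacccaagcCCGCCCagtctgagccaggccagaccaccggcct
The Itga1 window held no GC box, the Itgb3 window 3, of which a pair overlapped, the Itga6 window 3 and the Itga5 window 2. Among the other members, the windows held 3 GC boxes in Itga3, 2 in Itgb5, 1 in Itgb1 and none in Itga2, Itga11 and Itgav. Of 21770 protein-coding promoter windows of the same length, 36.3% held at least 1 GC box. The GC content was 50% for Itga1, 64.4% for Itgb3, 67.6% for Itga6 and 55.2% for Itga5, beside a median of 53.2% over all windows. The letters TGANTCA (AP-1), GGAATG (TEAD) and ACGTG (core of the hypoxia response element), searched on both strands, were in none of the 10 windows and in 6.2%, 12.1% and 17.0% of all windows.

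After 48 h the alpha chains moved in opposite directions. Itga1 rose 1.97-fold, whereas Itga6 fell by 48.8%, Itga5 fell by 31.0% and Itgav fell by 16.6%. Of the beta chains, Itgb3 and Itgb5 rose and Itgb1, the partner of most alpha chains, fell. In all, 3 of the 9 tested members rose, 4 fell and 2 did not pass the test at 48 h against control. A member is said to have risen or fallen where its adjusted p from edgeR's quasi-likelihood test was under 0.05. Over all tested genes, 22% rose and 24.4% fell in this comparison, beside 33.3% and 44.4% of the members. The libraries of control and 48 h did not overlap for 7 of the 9 members, as was the case for 53.1% of all tested genes. The median log2 fold change was -0.19 over the members and -0.0022 over all tested genes. In these bulk libraries, a change in the number of cells that express a subunit and a change in its RNA per cell cannot be told apart. The summed chondrocyte markers were higher in all 48 h libraries too, mostly through Prg4, with Sox9 also higher and Acan at 0. Their part in the changes of the integrins and their ligands was not tested.

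After 24 h none of the 9 members passed edgeR's test against control, in either direction. At an unadjusted p under 0.05, 4 members were higher and 1 was lower, and DESeq2 and limma-voom also called none. Over all tested genes 3.25% rose and 2.9% fell at 24 h. The libraries of control and 24 h did not overlap for 4 of the 9 members, compared with 21.5% of all tested genes. Without control replicate 3, Itga2 and Itgav were called higher at 24 h, with adjusted p of 0.0356 and 0.0359.

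From 24 h to 48 h, 2 members rose, 5 fell and 2 did not pass the test. The background was 23.7% rising and 25.4% falling among all tested genes. The libraries of 24 h and 48 h did not overlap for 7 members, and for 59.4% of all tested genes. As both comparisons with control share the same 3 control libraries, the direct comparison of 48 h with 24 h is the test of whether the changes at both times differ.

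**Figure D1:**
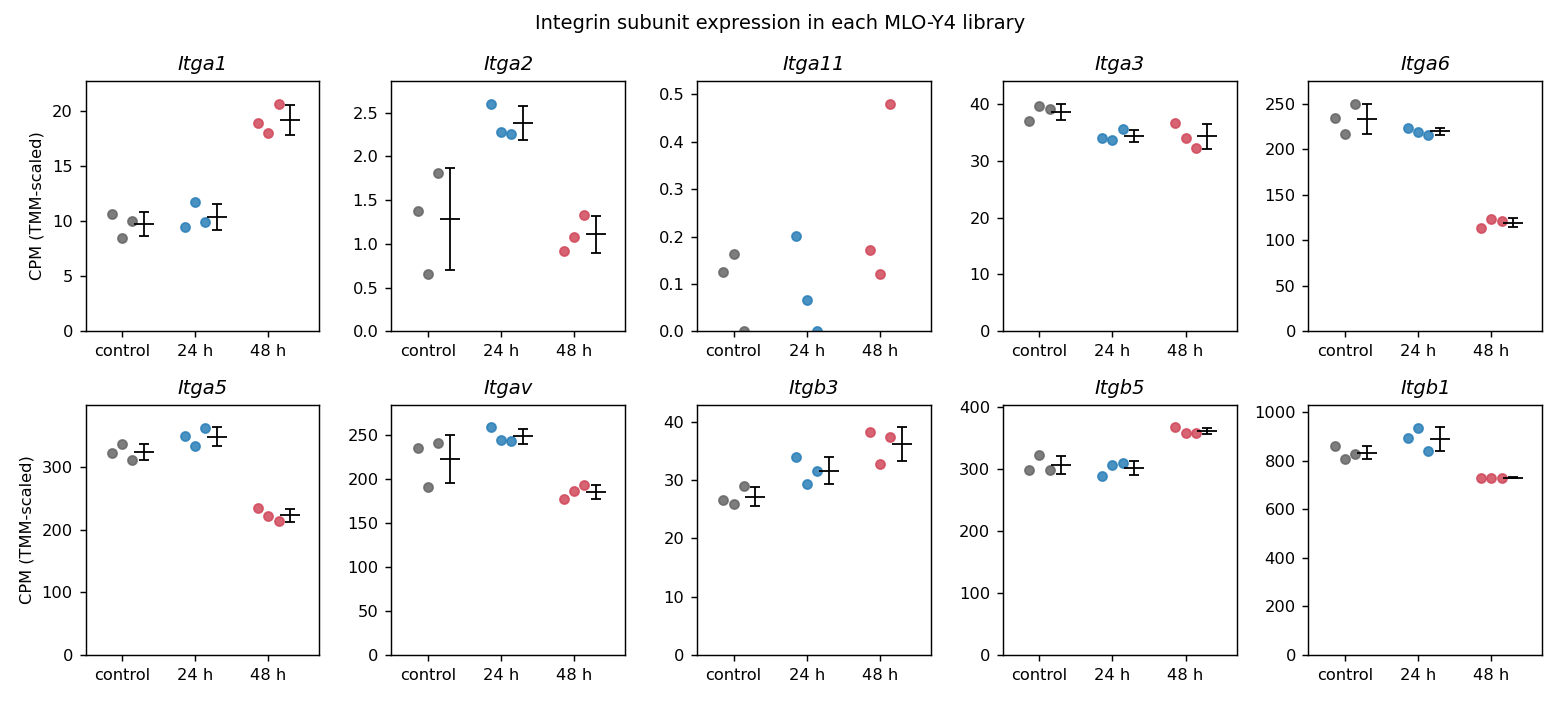
CPM of the 10 integrin subunits in each library, with a point for each library of control, 24 h and 48 h and a bar for the mean with the SD of 3 libraries (no bar for Itga11, whose counts were 0 to 9). Itga1 stands at 18.0 to 20.7 CPM at 48 h, above all control and 24 h libraries, and Itga6 at 114 to 123 CPM, below all of them.

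The collagen-binding alpha chains were the members with the lowest levels per gene length. Itga1 encodes alpha1, which prefers the network-forming type IV collagen and also binds type I. Its level was 10.6, 8.504 and 10.0 CPM in the control libraries, 9.48, 11.7 and 9.95 CPM at 24 h and 18.9, 18.0 and 20.7 CPM at 48 h. Every 48 h library stood above every other library, and control and 24 h overlapped. The log2 fold change was 0.98 ± 0.11 (SE) at 48 h against control, with an adjusted p of 1.13e-06, and 0.89 ± 0.11 against 24 h, with an adjusted p of 2.57e-06. At 24 h against control it was 0.09, with a 95% interval of -0.17 to 0.35 and an adjusted p of 0.76. Pelo, a gene of ribosome rescue, lies inside the Itga1 locus on the same strand, so that their reads are not fully separable. Pelo had 6.44 CPM in control and 5.66 CPM at 48 h, a log2 fold change of -0.19 with an adjusted p of 0.379.

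Itga2 encodes alpha2, the receptor chain for fibrillar collagen that platelets and epithelia are known for. Its level was 1.38, 0.654 and 1.81 CPM in control, 2.60, 2.28 and 2.26 CPM at 24 h and 0.914, 1.08 and 1.33 CPM at 48 h, from 8 to 39 reads per library. All 24 h libraries stood above all others, whereas control and 48 h overlapped. The difference at 24 h from control, 0.87 ± 0.31 on the log2 scale, had an adjusted p of 0.116 and was not called. The decrease from 24 h to 48 h was called, the log2 fold change being -1.09 ± 0.31 with an adjusted p of 0.00637. At 48 h against control the log2 fold change was -0.22, with a 95% interval of -0.93 to 0.49, and it turned to 0.09 without control replicate 3. Itga11 encodes alpha11, the collagen receptor chain of fibroblasts and mesenchymal cells. It had 2, 2 and 0 reads in control, 3, 1 and 0 reads at 24 h and 3, 2 and 9 reads at 48 h, too few for a comparison.

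Of the laminin-binding chains among the members, Itga6 fell at 48 h and Itga3 did not pass the test. Itga6 encodes alpha6, which pairs with beta1 or beta4 and binds laminin in basement membranes. Its level was 234, 217 and 249.7 CPM in control, 224, 219 and 216 CPM at 24 h and 114, 123 and 122 CPM at 48 h. The 48 h libraries lay far below the rest, and the control and 24 h libraries overlapped. At 48 h against control, Itga6 changed by -0.97 ± 0.06 on the log2 scale, with an adjusted p of 1.61e-10, the smallest of the members. It was -0.88 ± 0.06 against 24 h, with an adjusted p of 5.09e-10. At 24 h against control it was -0.09, with a 95% interval of -0.20 to 0.03 and an adjusted p of 0.434.

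Itga3 encodes alpha3, the partner of beta1 in the receptor for laminins of epithelial basement membranes. Its level was 36.9, 39.7 and 39.1 CPM in control, 34.0, 33.6 and 35.6 CPM at 24 h and 36.7, 34.0 and 32.3 CPM at 48 h. All later libraries stood below all control libraries, by a narrow margin. The log2 fold change against control was -0.16 ± 0.07 at 24 h, with an adjusted p of 0.207, and -0.17 ± 0.07 at 48 h, with an adjusted p of 0.0568, so neither was called. The adjusted p at 48 h became 0.0319 when 48 h replicate 1 was left out. Between 48 h and 24 h the log2 fold change was -0.0025, with a 95% interval of -0.15 to 0.14, and its sign depended on the scaling.

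**Figure D2:**
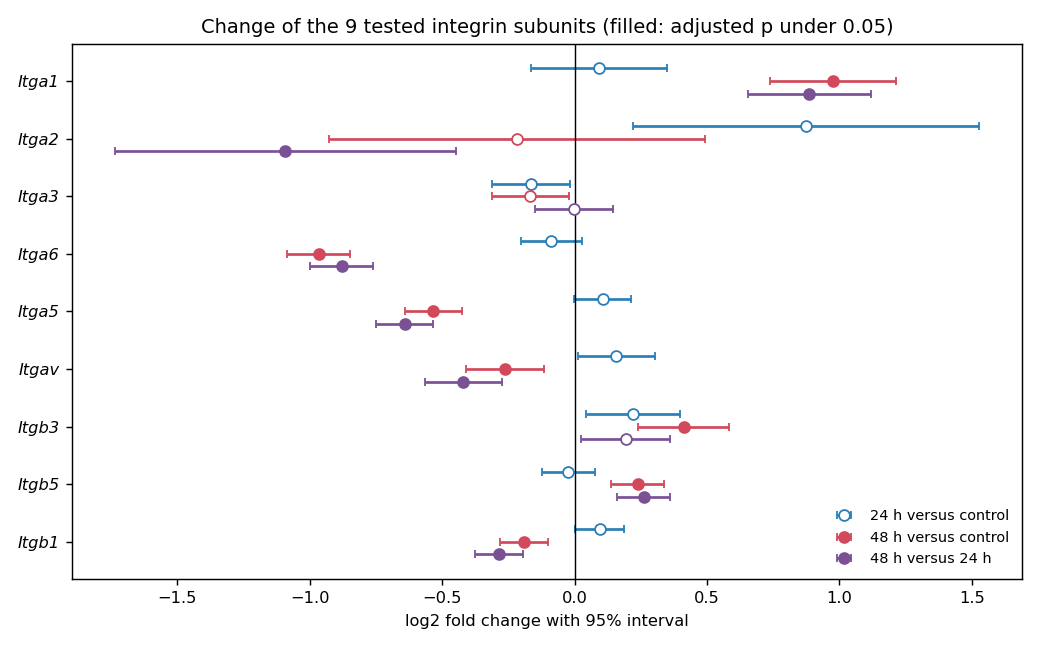
Log2 fold changes of the 9 tested integrin subunits in the 3 comparisons, with 95% intervals from the edgeR fit on the horizontal axis. Filled points have an adjusted p under 0.05: none at 24 h against control, 7 at 48 h against control and 7 at 48 h against 24 h, with Itga1 and Itga6 at opposite ends at 48 h against control.

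The fibronectin receptor chains fell together at 48 h. Itga5 encodes alpha5, which with beta1 binds the RGD site of fibronectin. Its level was 323, 337 and 312 CPM in control, 349.6, 333 and 363 CPM at 24 h and 234, 223 and 214 CPM at 48 h. All 48 h libraries were lower than all others, while control and 24 h overlapped. For Itga5 the log2 fold change was -0.53 ± 0.05 at 48 h against control, with an adjusted p of 1.08e-07, and -0.64 ± 0.05 against 24 h, with an adjusted p of 8.68e-09. At 24 h against control it was 0.11 with an adjusted p of 0.271.

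Itgb1 encodes beta1, the common partner of the collagen, laminin and fibronectin receptors. Its level was 862, 806.5 and 829 CPM in control, 893, 934 and 839 CPM at 24 h and 729.9, 730.1 and 727 CPM at 48 h. The 48 h libraries lay closely together and below all others. At 48 h against control, Itgb1 changed by -0.19 ± 0.04 on the log2 scale, with an adjusted p of 0.00151, and -0.29 ± 0.04 against 24 h, with an adjusted p of 2.76e-05. At 48 h Itgb1 thus fell by 12.4% from control.

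Itgav encodes alphav, the chain common to the vitronectin receptors. Its level was 235, 191 and 241 CPM in control, 258.5, 244 and 243 CPM at 24 h and 178, 186 and 194 CPM at 48 h. The 24 h libraries stood above all control and all 48 h libraries, and the low control replicate 2 overlapped with 48 h. The log2 fold change was -0.26 ± 0.07 at 48 h against control, with an adjusted p of 0.00479, and -0.42 ± 0.07 against 24 h, with an adjusted p of 6.34e-05. At 24 h against control it was 0.16 ± 0.07, with an adjusted p of 0.227.

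Itgb3 and Itgb5, whose chains pair with alphav, rose at 48 h while Itgav fell. Itgb3 encodes beta3, the vitronectin receptor chain known from osteoclasts and platelets and from mechanosensing attachments of osteocyte processes. Its level was 26.6, 25.8 and 29.0 CPM in control, 34.0, 29.3 and 31.6 CPM at 24 h and 38.2, 32.8 and 37.4 CPM at 48 h. All 24 h and all 48 h libraries stood above all control libraries, and they overlapped with each other. The log2 fold change against control was 0.22 ± 0.08 at 24 h, with an adjusted p of 0.148, and 0.41 ± 0.08 at 48 h, with an adjusted p of 0.00043. Between 48 h and 24 h it was 0.19 ± 0.08 with an adjusted p of 0.0544, close to the threshold and past it in 8 of the alternative settings.

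Itgb5 encodes beta5, the other vitronectin receptor chain with alphav. Its level was 298, 324 and 298.5 CPM in control, 289, 306 and 309.6 CPM at 24 h and 367.5, 358 and 359 CPM at 48 h. Every 48 h library stood above every other library. The log2 fold change was 0.24 ± 0.05 at 48 h against control, with an adjusted p of 0.000485, and 0.26 ± 0.05 against 24 h, with an adjusted p of 0.000174. At 24 h against control it was -0.02, with a 95% interval of -0.12 to 0.08.

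Levels of different subunits were compared per gene length, as FPKM (CPM per 1000 bases), which rests on the summed exon length of each gene in the deposited table. Among the members, Itgb1 was highest in control with 204 ± 6.85 FPKM (SD, n = 3), followed by Itgb5 with 86.3 ± 4.13 and Itga5 with 65.7 ± 2.56. Itga6 followed with 25.5 ± 1.81 FPKM, Itgav with 20.7 ± 2.56, Itga3 with 6.75 ± 0.254 and Itgb3 with 4.6 ± 0.285. Itga1 had 0.522 ± 0.0583 FPKM, Itga2 0.180 ± 0.0816 and Itga11 0.0188 ± 0.0167. No neighbours in this order overlapped in control. At 24 h the order was the same, with Itga6 at 24.0 ± 0.427 and Itgav at 23.1 ± 0.810 FPKM overlapping.

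At 48 h Itgav, with 17.3 ± 0.739 FPKM, stood above Itga6, with 13.1 ± 0.539. Itgb3, with 6.12 ± 0.492 FPKM, reached Itga3, with 6.01 ± 0.387, and these neighbours overlapped. Itgb1 was still the highest member with 179 ± 0.372 FPKM, followed by Itgb5 with 102 ± 1.44 and Itga5 with 45.3 ± 2.10. Itga1 reached 1.03 ± 0.0732 FPKM and was still below Itga3. Itga2 had 0.156 ± 0.0297 FPKM and Itga11 0.0501 ± 0.0380.

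**Figure D3:**
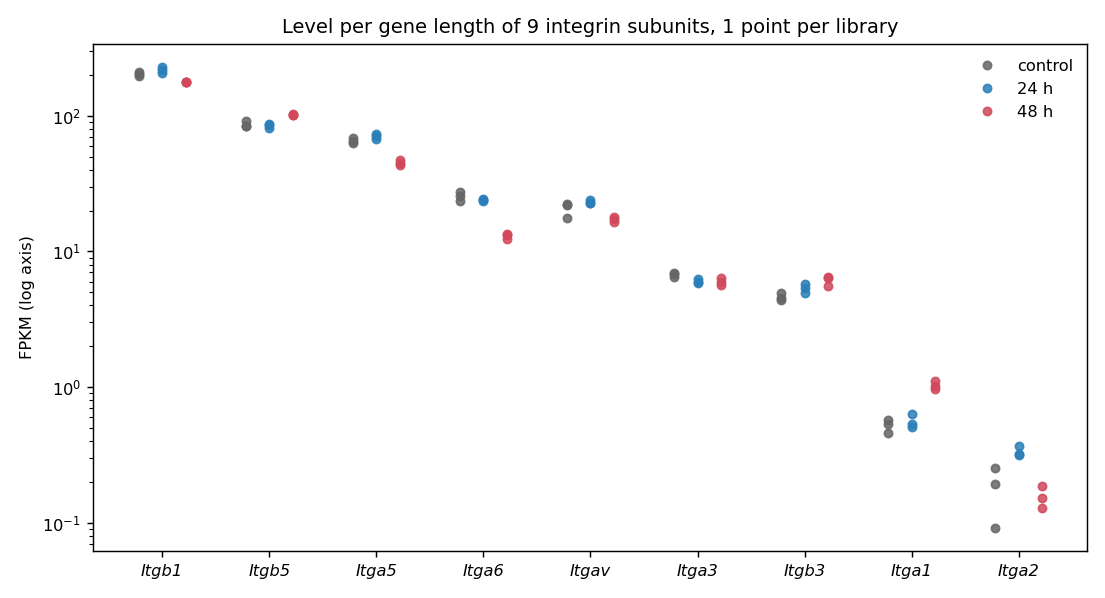
FPKM of 9 integrin subunits on a log axis, with a point for each library, ordered by the control mean (Itga11, which has libraries at 0, is not drawn). Levels span from 204 FPKM for Itgb1 to 0.180 for Itga2 in control, and at 48 h Itga6 lies below Itgav while Itgb3 reaches Itga3.

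The 7 alpha chains summed to 119 ± 1.83 FPKM in control, 125 ± 3.19 at 24 h and 82.9 ± 1.201 at 48 h (SD, n = 3). The 3 beta chains among the members summed to 295 ± 4.11, 308 ± 11.1 and 287 ± 1.95 FPKM. At 48 h both sums lay below those of every control and 24 h library. Beta chains outside the members do not enter these sums, such as Itgb7 with 109, 95.8 and 79.3 FPKM. Within the alpha chains, Itga5 took 55.0 ± 2.96% in control, 56.6 ± 1.19% at 24 h and 54.6 ± 1.75% at 48 h, and the groups overlapped. Itga6 took 21.4 ± 1.23%, 19.3 ± 0.613% and 15.8 ± 0.839%, without overlap between the groups. Itgav took 17.3 ± 1.90% in control, 18.5 ± 0.647% at 24 h and 20.9 ± 1.19% at 48 h. Itga3 took 5.66 ± 0.275%, 4.83 ± 0.101% and 7.24 ± 0.363%. The higher shares of Itgav and Itga3 at 48 h are parts of a smaller sum. In FPKM, Itgav went from 20.7 in control to 17.3 at 48 h and Itga3 from 6.75 to 6.01. Itga1 took 0.437 ± 0.0429% of the alpha sum in control, 0.448 ± 0.0628% at 24 h and 1.25 ± 0.102% at 48 h. By counts, without the division by length, the Itga1 share was 1.07% to 1.26% in control, 1.08% to 1.39% at 24 h and 3.08% to 3.54% at 48 h.

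Ratios within a ligand class moved as well, as ratios of FPKM. The ratio of Itga3 to Itga6, the laminin-binding members, was 0.266 ± 0.0240 in control, 0.251 ± 0.0113 at 24 h and 0.461 ± 0.0483 at 48 h. The ratio of Itgb3 to Itgav was 0.224 ± 0.0208, 0.232 ± 0.0114 and 0.355 ± 0.0351. Both ratios were higher in every 48 h library than in any other. The ratio of Itgb3 to Itgb5 was 0.0534 ± 0.00526 in control, 0.0633 ± 0.00675 at 24 h and 0.0601 ± 0.00430 at 48 h, with overlapping libraries. The ratio of Itga1 to Itga2 rested on few Itga2 reads and was 3.35 ± 1.47, 1.69 ± 0.288 and 6.75 ± 1.05.

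Of the 17 other integrin subunits, 9 were tested, and the remaining 8 had at most 4 reads in any library. At 48 h against control 4 rose, 1 fell and 4 did not pass. At 24 h 2 fell and 7 did not pass. Over all tested genes, 22% rose and 24.4% fell at 48 h, and 3.25% rose and 2.9% fell at 24 h. Itgb4, the beta chain that joins alpha6 in hemidesmosomes, was at 33.1 ± 2.83 CPM in control, 25.5 ± 0.209 at 24 h and 53.9 ± 1.30 at 48 h. At 24 h it fell (log2 fold change -0.37, adjusted p = 0.00381), and at 48 h it rose (0.71, adjusted p = 1.21e-07). Itgb4 thus rose while its partner Itga6 fell. Itgb8, which pairs with alphav and activates latent TGF-beta, went from 17.8 ± 2.27 CPM in control and 20.8 ± 0.977 at 24 h to 39.7 ± 4.21 at 48 h. Its log2 fold change at 48 h was 1.15, with an adjusted p of 2.13e-08, while alphav itself fell.

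Itgb7, a beta chain known from lymphocytes, was at 302 ± 21.0 CPM in control, 265 ± 6.48 at 24 h and 219.6 ± 1.503 at 48 h. Its log2 fold change was -0.18 at 24 h, with an adjusted p of 0.0382, and -0.46 at 48 h, with 8.47e-07. With 109 FPKM in control it stood between Itgb1 and Itgb5, although its known partner Itga4 had no read in any library and Itgae at most 26. Itga7, a laminin-binding chain of muscle, rose from 9.29 ± 0.0338 to 12.5 ± 1.14 CPM at 48 h (log2 fold change 0.43, adjusted p = 0.0037). Itga2b, the platelet partner of beta3, went from 20.3 ± 0.911 to 23.9 ± 1.92 CPM, with a log2 fold change of 0.23 and an adjusted p of 0.029. Itgb2, the leukocyte beta chain, was at 20.4 ± 2.1 CPM in control, 16.4 ± 1.65 at 24 h and 20.9 ± 0.190 at 48 h, and its log2 fold change at 48 h of 0.04 had an adjusted p of 0.779. The collagen-binding Itga10, with 1.07 CPM in control, as well as Itgae and Itgal, did not pass the test against control.

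**Figure D4:**
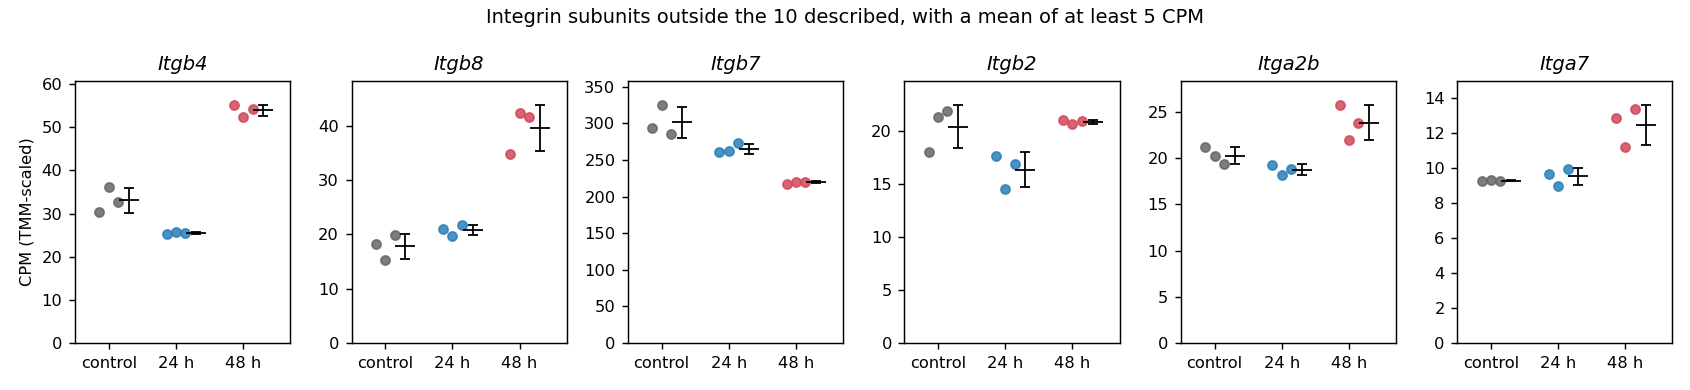
CPM of 6 integrin subunits outside the 10, with a point for each library and a bar for the mean with the SD of 3 libraries. Itgb4 dips to 25.5 CPM at 24 h and stands at 53.9 CPM at 48 h, Itgb8 reaches 39.7 CPM and Itgb7 steps down from 302 to 265 CPM and 219.6 CPM.

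Genes for the ligands of these receptors changed in both directions. The counts in this and the following lists stand beside 22% rising and 24.4% falling of all tested genes at 48 h. At 24 h these shares were 3.25% and 2.9%. Of 13 tested collagen genes, 7 rose, 4 fell and 2 did not pass at 48 h, with a median log2 fold change of 0.12. Col3a1, a fibrillar collagen, rose with a log2 fold change of 1.13, Col5a3 with 0.69 and Col8a1 with 0.62. Col6a3 fell with -0.64, and the basement membrane chains Col4a1 and Col4a2, ligands of alpha1 beta1, fell with -0.53 and -0.28. Col1a1 also fell, with -0.14. At 24 h, 2 collagen genes rose (Col5a2 with 0.36 and Col3a1 with 0.29) and 5 fell. These were Col1a1 with -0.20 and Col1a2 with -0.33, the chains of type I collagen, Col6a3 with -0.38, Col6a2 with -0.19 and Col4a1 with -0.17.

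Of 12 tested genes for laminin chains and other basement membrane ligands, 6 rose, 1 fell and 5 did not pass at 48 h, with a median log2 fold change of 0.22. The laminin chains Lama4 and Lamb1 rose with 0.69 and 0.57, and nidogen-2 (Nid2) with 0.59. At 24 h, 5 rose and 1 fell, and among those that rose were Nid1 and Lamc1 with log2 fold changes of 0.47 and 0.33. Lamb3, a low gene with 2.27 CPM in control and at most 33 reads, was the gene that fell, with -0.91 at 48 h and -1.29 at 24 h. Of 15 tested genes for fibronectin, vitronectin and other RGD ligands, 7 rose, 5 fell and 3 did not pass at 48 h, with a median of 0.07. Among all tested genes, 22% rose and 24.4% fell at 48 h, and 3.25% rose and 2.9% fell at 24 h.

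Vitronectin (Vtn) rose from 0.879, 2.13 and 1.28 CPM in control to 10.6, 11.8 and 9.29 CPM at 48 h, a log2 fold change of 2.92 with an adjusted p of 1.68e-08. Tenascin-C (Tnc) and Thbs2 rose with 0.92 and 0.79. Ccn1 and Ccn2, matricellular ligands of alphav and alpha6 integrins, fell with log2 fold changes of -1.199 and -0.62, and osteopontin (Spp1) with -0.50. Tgfb1, whose latent form alphav integrins bind, and fibrillin-1 (Fbn1) fell with -0.34 and -0.19. Fibronectin (Fn1), the ligand of alpha5 beta1, which was named after its values were seen, had 9478 CPM in control, 8599 at 24 h and 13590 at 48 h. Its log2 fold change at 48 h was 0.52, with an adjusted p of 6.22e-08, opposite in sign to that of Itga5. At 24 h, 3 genes of this list rose, namely Tnc with 0.69, Fbn1 with 0.31 and Ccn1 with 0.23, and Fbln5 fell with -0.28. Ccn1 and Fbn1 thus rose at 24 h and fell at 48 h, each against control. The 48 h libraries of Fbn1, at 44.3 to 50.2 CPM, overlapped with control at 48.7 to 58.7 CPM, whereas those of Ccn1 did not.

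Inside the cell, 43 activators and focal adhesion proteins were tested, of which 11 rose, 12 fell and 20 did not pass at 48 h, with a median log2 fold change of -0.07. The shares over all tested genes were 22% rising and 24.4% falling at 48 h, and 3.25% and 2.9% at 24 h. The adaptor Nedd9 and the tensins Tns1 and Tns2, which link integrin tails to actin, rose with 0.78, 0.64 and 0.56. Beta-parvin (Parvb), a partner of integrin-linked kinase, fell with a value of -1.19, the scaffold Bcar1 with -0.63 and Apbb1ip (RIAM), which recruits talin, with -0.53. At 24 h, 4 of these 43 genes rose, namely zyxin (Zyx) with 0.28, Tns3 with 0.23, filamin A (Flna) with 0.20 and talin-1 (Tln1) with 0.18, and Tns1 fell with -0.40.

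Of 21 tested membrane proteins that associate with integrins, 11 rose, 5 fell and 5 did not pass at 48 h, with a median log2 fold change of 0.15. Syndecan-2 (Sdc2), Cd47 and neuropilin-1 (Nrp1) rose with 0.71, 0.43 and 0.38. The urokinase receptor Plaur fell with -1.26, Cd44 with -0.57 and Slc3a2 (CD98 heavy chain) with -0.53. The tetraspanins Cd9 and Cd151, the latter a partner of the laminin-binding integrins, fell with -0.34 and -0.24. At 24 h, 3 of the list rose and 4 fell, with syndecan-4 (Sdc4) at 0.43 and galectin-3 (Lgals3) at -0.35. Of 18 tested genes of integrin trafficking, 2 rose, 6 fell and 10 did not pass at 48 h, with a median of -0.11. For both lists, the shares over all tested genes were 22% rising and 24.4% falling at 48 h, and 3.25% and 2.9% at 24 h. The endocytic adaptor Dab2 rose with 1.02 and Rab5a with 0.29, while Ehd1, Snx17 and Cltc (clathrin heavy chain) fell with -0.34, -0.29 and -0.20. At 24 h, 2 of these 18 genes, Myo10 with 0.34 and Ehd1 with 0.18, rose and 16 did not pass.

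**Figure D5:**
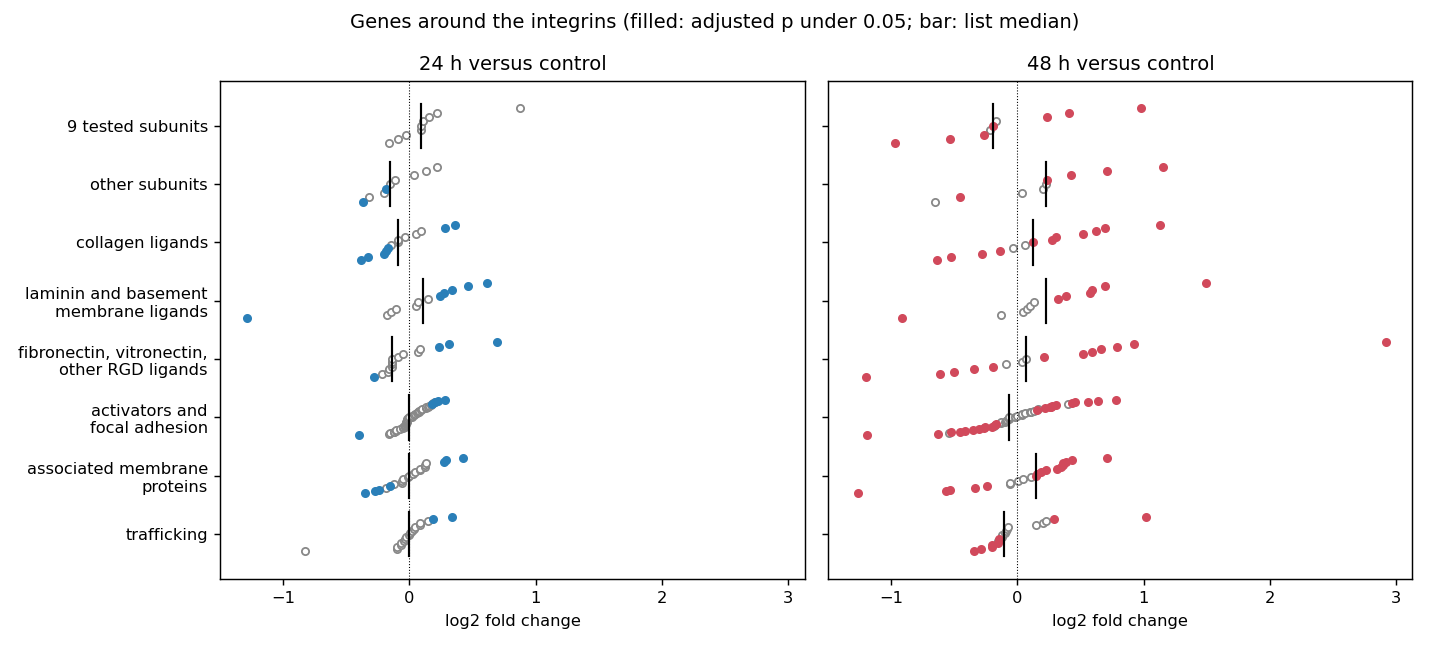
Log2 fold changes of the 9 tested subunits and of the listed genes around them at 24 h and at 48 h against control, with a point for each tested gene, filled where the adjusted p was under 0.05, and a bar at the median of each list. The points spread wider at 48 h, where the medians lie between -0.19 for these 9 subunits and 0.23 for the other subunits.

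The genes most alike in pattern were found for the members with the largest changes at 48 h, by Pearson correlation of log2 CPM over the 9 libraries among 10079 protein-coding genes. The closest included Ulk2 and Il6ra for Itga1, with r = 0.988 and 0.985, and Eml1, Ccnd1 and Chac1 for Itga6, with r = 0.996, 0.993 and 0.993. The 9 libraries fall into 3 groups, and 193 genes reached an r of over 0.95 with Itga1 and 628 with Itga6.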

How the data were processed

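RNA of MLO-Y4 cells was sequenced from directional libraries read from both ends, in 3 groups of 3 samples that were assigned from the sample titles. The deposited table holds raw read counts for each gene, which the authors made by alignment to GRCm39 with HISAT2 and counting with featureCounts (version 2.06 in the submitters' processing notes, another version in the protocol). The study's methods also name RSEM, and neither strand setting nor handling of reads with several matches is given in the sources used here, so counts of overlapping genes are uncertain.

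Counts were analysed in R 4.3.3 with edgeR 4.0.16 and limma 3.58.1. Genes were kept by filterByExpr with a minimum count of 10, which left 13812 genes with 99.88% of the reads. Libraries were scaled by TMM (trimmed mean of M values). All 9 libraries entered 1 quasi-likelihood fit by group with 6 residual degrees of freedom, and p-values were adjusted over all tested genes by Benjamini-Hochberg at 0.05. SE follow from each fold change and its F value. The 95% intervals use the total degrees of freedom of the fit, which exceed the 6 residual ones because edgeR shares the spread across genes. CPM are counts per 1000000 reads after TMM scaling, and FPKM are CPM divided by the deposited gene length in units of 1000 bases. Shares, ratios and FPKM carry no test. Alternatives included DESeq2 1.42.0, limma-voom, other scaling, no filter, a stricter threshold of 0.01 on the adjusted p and omission of each library. The procedure was also run on simulated counts, drawn for independent libraries from the means and spread of these data. That run cannot show whether the replicates here are independent.

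The members and gene lists were chosen with earlier results of these data known. All members and all tested other subunits are named, and of each other list at most 3 called genes per direction and comparison with the largest change, a mean of at least 5 CPM and no overlap of libraries. Fn1 and genes that complete a count of 5 or fewer were named after their values were seen. Some genes that the rule selects are not reported here. All pairs of replicates differed by more than sampling noise. The labels do not say that replicates are separate cultures, so p-values measure the spread between these samples, which may be technical.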

Additional observations from a re-analysis of the deposited data

Results flagged for a closer look

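In 46 genes, the change against control at 48 h differed from that at 24 h by the direct test of 48 h against 24 h (edgeR, adjusted p under 0.05). They comprise 7 of the members, 6 other integrin subunits and 33 genes of the other lists. The cell type marker lists were not drawn on, but Spp1, Cd44 and Itgb2, which are also markers, enter through other lists. The genes of the other lists are at most 3 per list and direction, those with the largest changes between 24 h and 48 h at a mean of at least 5 CPM, so further genes also passed this test. Among all tested genes, 23.7% rose and 25.4% fell from 24 h to 48 h. All values given in parentheses are the log2 fold change at 48 h minus that at 24 h, and no explanation was tested. Among the members the difference was positive for Itga1 (0.89) and Itgb5 (0.26) and negative for Itga2 (-1.09), Itga6 (-0.88), Itga5 (-0.64), Itgav (-0.42) and Itgb1 (-0.29). Among other subunits it was positive for Itgb4 (1.08), Itgb8 (0.93), Itga7 (0.39), Itgb2 (0.35) and Itga2b (0.35) and negative for Itgb7 (-0.27).

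Of the ligand genes, the difference was positive for Vtn (3.08), Thbs2 (0.93), Fbln5 (0.87), Col3a1 (0.84), Col16a1 (0.62), Col5a3 (0.60), Nid2 (0.76), Lamb2 (0.53) and Lama4 (0.45). It was negative for Ccn1 (-1.43), Spp1 (-0.58), Ccn2 (-0.53), Col4a1 (-0.36), Nid1 (-0.34), Hspg2 (-0.28), Col6a3 (-0.25) and Col4a2 (-0.19). Of the genes for cytoplasmic, trafficking and associated membrane proteins, the difference was positive for Tns1 (1.04), Dab2 (0.99), Sdc2 (0.95), Tns2 (0.62), Nedd9 (0.58), Cd82 (0.54) and Cav1 (0.43). It was negative for Plaur (-1.34), Parvb (-1.03), Cd44 (-0.69), Tns3 (-0.64), Bcar1 (-0.60), Slc3a2 (-0.53), Ehd1 (-0.53), Myo10 (-0.41) and Cltc (-0.29).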

How the results depend on the processing

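Over 17 alternatives, 434 of 459 values of the members kept their direction and their side of the threshold. Of the others, 12 passed the threshold in addition, 13 changed sign and none was lost. No value that changed sign was called. Of the 17 alternatives, the stricter threshold of 0.01 reused the main fit, so no direction could change in it. Leaving out a library of the group not compared could act only through the filter, the scaling and the shared spread. The number of members called higher at 24 h was 1 without a filter on low counts (Itgav, adjusted p = 0.0403) and 0 to 2 when single libraries were left out. Sign changes concerned Itga3 at 48 h against 24 h, with log2 fold changes of 0.0039 under RLE scaling and under DESeq2, 0.037 by library size only and -0.054 to 0.043 without single libraries (above 0 without control replicates 1, 2 and 3, 24 h replicate 3, 48 h replicates 2 and 3). The other sign changes, with their ranges when single libraries were left out, were those of Itga2 at 48 h (-0.49 to 0.094, the last without control replicate 3), Itga1 at 24 h (-0.0027 without 24 h replicate 2, up to 0.17) and Itgb5 at 24 h (-0.041 to 0.019, above 0 at 0.019 without control replicate 2 and 0.0083 without 24 h replicate 1). Additional calls were those of Itga2 and Itgav at 24 h, Itga3 at 48 h and Itgb3 at 48 h against 24 h, the last with adjusted p of 0.0218 to 0.0463 in 8 alternatives.

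The labels share replicate numbers between groups, but same-numbered samples did not deviate together, with correlations of -0.0493 to 0.0775. A replicate block changed the calls over all genes from 6408 to 6468 at 48 h, from 849 to 958 at 24 h and from 6782 to 6810 between the times. Among the members the block added Itgb3 at 48 h against 24 h (0.19, adjusted p = 0.0387) and changed no other call.

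The mean level of Itgb1 at 48 h was 739 CPM by library size only and 732 CPM under RLE scaling, beside 729 CPM. Shares of the alpha chains by counts in place of FPKM were, for control, 24 h and 48 h, 4.66%, 3.98% and 5.88% for Itga3, 39.1%, 40.3% and 38.3% for Itga5, 28.1%, 25.4% and 20.5% for Itga6, and 26.8%, 28.7% and 31.8% for Itgav, and for Itga1 they ranged over 1.07% to 1.26%, 1.08% to 1.39% and 3.08% to 3.54%, since the lengths then no longer enter. Depth limits Itga2, with 8 to 39 reads, and Itga11, with 0 to 9.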
